A study of Mus musculus with 60 samples.

Results

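The 10 genes described here encode the major acute phase proteins of mouse liver: the serum amyloid A genes Saa1, Saa2, Saa3 and Saa4, the lipocalins Lcn2, Orm1 and Orm2, haptoglobin (Hp), serum amyloid P (Apcs) and the protease inhibitor Serpina3n. They were picked by symbol. Each had a row in every table, so 10 of the 14620 genes of the time course are reported, and all 10 passed the filter on low values that kept 12957 genes for testing. The study sequenced liver RNA of male C57BL/6 mice, 8 weeks old, after partial hepatectomy (PHx, surgical removal of most of the liver) or a sham operation. In the time course the operation took place in the morning, from 8 to 9 am, and PHx and sham livers were collected every 4 h until 32 h later. PHx and sham livers after a night operation, from 8 to 9 pm, were collected at 4 and 24 h. Each of the 20 groups holds 3 libraries, and the labels give 3 mice per group, 60 libraries in all. Every group was operated on, so no liver here shows the level before surgery.

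The acute phase response is a change in the plasma proteins that hepatocytes secrete after injury, infection or inflammation. Interleukin 6 drives it through the receptor chain gp130 and the transcription factor STAT3, and interleukin 1 adds to it through NF-kB. C/EBP factors bind the promoters of many acute phase genes. Saa1 and Saa2 are carried on high-density lipoprotein and are the inducible forms of the liver. Saa3 is known in mice mainly from macrophages and other cells outside the hepatocyte, and Saa4 is known as the constitutive form. Lcn2 binds bacterial siderophores, Orm1 and Orm2 (orosomucoids) carry small lipophilic molecules, Hp binds free haemoglobin, Apcs is a pentraxin and Serpina3n inhibits serine proteases.

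The upstream sequences of 4 members are shown because Saa1 and Saa2 are near copies that both rose, while Saa4 from the same gene cluster did not follow them, and Lcn2 is an unrelated gene that moved with Saa1 and Saa2. They are the 250 bases before the annotated start, 5′ to 3′ on the gene's strand, from the RefSeq promoter table on GRCm38.p6, which holds 8 of the 10 members (Orm1 and Hp are not shown). Capitals mark matches to TTGCNNAA, a C/EBP motif, on either strand. Saa1 lies at chr7:46742981-46743230 on the minus strand, Saa2 at chr7:46751583-46751832 on the plus strand, Saa4 at chr7:46732604-46732853 on the minus strand and Lcn2 at chr2:32387740-32387989 on the minus strand.
Saa1: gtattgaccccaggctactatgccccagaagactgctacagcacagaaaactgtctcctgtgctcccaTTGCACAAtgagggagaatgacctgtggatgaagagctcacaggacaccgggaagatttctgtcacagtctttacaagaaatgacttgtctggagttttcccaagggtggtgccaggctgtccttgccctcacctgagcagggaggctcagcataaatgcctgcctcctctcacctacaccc
Saa2: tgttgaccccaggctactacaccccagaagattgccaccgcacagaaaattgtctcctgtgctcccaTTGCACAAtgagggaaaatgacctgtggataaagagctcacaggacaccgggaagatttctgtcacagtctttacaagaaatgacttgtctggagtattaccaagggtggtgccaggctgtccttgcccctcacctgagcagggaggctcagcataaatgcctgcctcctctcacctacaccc
Saa4: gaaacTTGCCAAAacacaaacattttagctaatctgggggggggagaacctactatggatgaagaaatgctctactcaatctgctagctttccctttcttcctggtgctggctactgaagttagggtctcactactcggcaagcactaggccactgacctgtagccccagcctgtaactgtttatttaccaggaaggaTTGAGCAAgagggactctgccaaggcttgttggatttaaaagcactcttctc
Lcn2: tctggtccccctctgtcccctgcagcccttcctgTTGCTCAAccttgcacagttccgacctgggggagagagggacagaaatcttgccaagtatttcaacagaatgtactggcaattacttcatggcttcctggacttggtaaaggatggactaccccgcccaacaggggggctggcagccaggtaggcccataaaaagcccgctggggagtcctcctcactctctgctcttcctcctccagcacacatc

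Saa1 and Saa2 had 238 identical bases, 11 different bases and 2 gap positions in an alignment of 251 positions, an identity of 94.8%. In the same kind of alignment, Saa4 shared 46.3% with Saa1 and Lcn2 51.7%. The C/EBP motif was in 6 of the 8 members' windows (Saa1, Saa2, Saa3, Saa4, Lcn2 and Orm2), against 9.56% of 32851 promoter windows of the same length. A wider form, TTNNGNAA, which covers the first motif on the opposite strand, was in 7 of 8 against 36.8% of windows. The STAT motif TTCNNNGAA was found in Apcs alone (7.02% of windows) and its longer form TTCNNNNGAA in Lcn2 alone (5.85%). The NF-kB motif GGGANNTTCC was in none of the 8 windows (1.21% of windows), and the wider GGGNNNTTCC was in Serpina3n alone (4.65%). All motifs were searched on both strands. Saa4 carried 2 matches to TTGCNNAA, more than the 1 of Saa1, Saa2 and Lcn2, so presence of the motif did not separate the members by how they responded. A match describes the letters of the window and is no evidence of binding.

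Some facts of the libraries bear on every value. The time course tables hold log2(value + 1), where the value is scaled by transcript length but has no stated unit. Linear sums per library were 0.937 to 1.20 M, and the depth behind them is not known. The 24 h count tables hold 24.6 to 30.2 M reads per library. Alb, the albumin gene that marks hepatocytes, had linear values from 18109.9 to 33347 in PHx livers and from 23437 to 50695 in sham livers. In whole tissue, fewer cells of a type and less RNA per cell cannot be told apart. Saa1 and Saa2 are paralogs, and so are Orm1 and Orm2, so reads may have been split wrongly within each pair. Their transcript sequences were not compared here. Library identifiers in the labels fall into series: at 4 h the PHx and sham libraries belong to different series, so series and operation cannot be told apart at that time. A pair of sham libraries stood apart. Sham 12 h replicate 3 had 8 of the 10 members above all 23 other sham libraries. Sham 4 h replicate 1 listed 3422 genes at 0, against a median of 1197 in the other time course libraries. Some of the changes and counts below, but not all, are also given without the library concerned.

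Saa2, encoding serum amyloid A2, had the highest expression values of the set in PHx livers and the largest single change, at 8 h. At 8 h, Saa2 had linear values of 33594, 50510 and 41886 in PHx livers, against 70.8, 52.7 and 57.4 in sham livers. At 4 h it was already at 9019, 8586 and 21216 in PHx livers, against 29.3, 79.0 and 53.4 in sham livers. Every PHx library lay above every sham library, with log2 values whose lowest, median and highest were 12.7, 14.5 and 15.7 over 24 PHx libraries and 4.92, 6.35 and 11.5 over 24 sham libraries. The log2 change of PHx against sham was 7.86 at 4 h (232-fold), 9.41 at 8 h (681-fold) and 7.70 at 32 h (208-fold), each with a standard error of 0.63 (limma, adjusted p of 7.75e-12, 5.02e-13 and 4.02e-10, n = 3 each). Its smallest change, 6.64 at 12 h, became 8.08 without sham 12 h replicate 3. All changes of the time course are on the log2(value + 1) scale, on which genes near 0 change by less than on a plain log2 scale.

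Saa1, the other inducible form, followed the same course at a lower expression value. At 8 h it had linear values of 6096, 9354 and 7351 in PHx livers, against 29.6, 36.4 and 32.5 in sham livers. Its log2 values ran from 10.6 to 13.2 with a median of 12.2 in PHx livers, and from 4.29 to 10.1 with a median of 5.41 in sham livers. No PHx library overlapped a sham library. Of all 12957 genes tested, 0.857% had every PHx library above every sham library of the same time at all 8 times. Genes with every PHx library above every sham library of any time are among these and were not counted apart. The log2 change was 6.78 at 4 h (109.6-fold), 7.80 at 8 h (222-fold) and 5.48 at 32 h (44.7-fold), each ± 0.63 (SE, limma, adjusted p of 1.93e-10, 1.83e-11 and 1.75e-07). At 12 h it was 5.46, and 6.88 without sham 12 h replicate 3.

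Saa3 was low throughout and rose less regularly. At 8 h it had linear values of 15.6, 17.4 and 37.4 in PHx livers, against 0, 1.87 and 2.88 in sham livers. At 28 h it had 246, 7.48 and 20.2 in PHx livers, against 1.44, 1.27 and 1.62 in sham livers. The first of these PHx livers was the highest of the 24, while the other livers of its group were within the range of the remaining times. PHx values lay above sham values without overlap at 7 of 8 times, all but 20 h, beside 9.09 to 28.6% of all genes at single times. The log2 change passed the test at 5 times, 4 h (3.02), 8 h (3.35), 24 h (2.66), 28 h (3.86) and 32 h (2.83), each ± 0.79 (SE, limma, adjusted p between 5.17e-04 and 0.0216). It was 2.15 at 12 h (limma, adjusted p = 0.058), 1.73 at 16 h (0.151) and 0.49 at 20 h (0.732). In a fit of the 6 libraries of the time alone, the 28 h change of Saa3 did not pass (limma, adjusted p = 0.125) and the 12 h change did (0.00582). Without PHx 28 h replicate 1, the liver at 246, the 28 h change was 2.46 (adjusted p = 0.0151). Without sham 4 h replicate 1, which was at 0, the 4 h change was 2.26. The call at 24 h was lost without sham 24 h replicate 3 (2.29, adjusted p = 0.101), PHx 24 h replicate 2 (2.17, 0.113) or PHx 24 h replicate 3 (2.47, 0.0726), in the fit of the 6 libraries alone (2.66, 0.0586) and with a pseudocount of 0.1 (2.97, 0.0814), and that at 32 h without sham 32 h replicate 1 (2.37, 0.0770). Markers of Kupffer cells and macrophages, the cell type in which Saa3 is best known, summed to 738 to 800.5 in PHx livers at 28 h, against 354 to 433 in sham livers, and to 160 to 208 in PHx livers at 4 h, against 230 to 1179 in sham livers. Over all times, the marker Marco had a median of 137 in PHx livers, against 13.9 in sham livers. Medians of Cd5l and Cd68 were also higher in PHx livers, and those of Clec4f, Adgre1, Vsig4, Timd4 and Csf1r were lower. Of the 8 markers, 5 were called lower and 0 higher at 4 h by limma, where Saa3 was higher, and 1 was called higher and 0 lower at 28 h. At 4 h, 37.6% of all genes were called lower, and 18.8% with TMM scaling. The part of Kupffer cells and macrophages in the Saa3 values at 28 h was not tested.

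Saa4 did not share the rise of Saa1 and Saa2. At 8 h it had linear values of 257, 234 and 227 in PHx livers, against 252, 246 and 264 in sham livers. At 28 h it had 289.9, 117 and 305 in PHx livers, against 525, 653 and 592 in sham livers. Its mean was 254 at 24 h and 237 at 28 h in PHx livers, against 177 and 589.8 in sham livers. PHx values were above sham values without overlap at none of the 8 times and below them at 12 and 28 h. The share of all genes with PHx below sham without overlap was not counted. The log2 change was 0.97 ± 0.38 at 4 h (SE, limma, adjusted p = 0.0364) and -1.42 ± 0.38 at 28 h (adjusted p = 0.00698), and it passed the test at no other time. The call at 4 h was lost without PHx 4 h replicate 2 (0.80, adjusted p = 0.128), PHx 4 h replicate 3 (0.72, 0.180), sham 4 h replicate 2 (0.92, 0.0833) or sham 4 h replicate 3 (0.86, 0.103), and in the fit of the 6 libraries alone (0.101). The call at 28 h was lost without PHx 28 h replicate 2, the lowest of its group (-0.98, adjusted p = 0.091), and in the fit of the 6 libraries alone (0.0929).

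**Figure D1:**
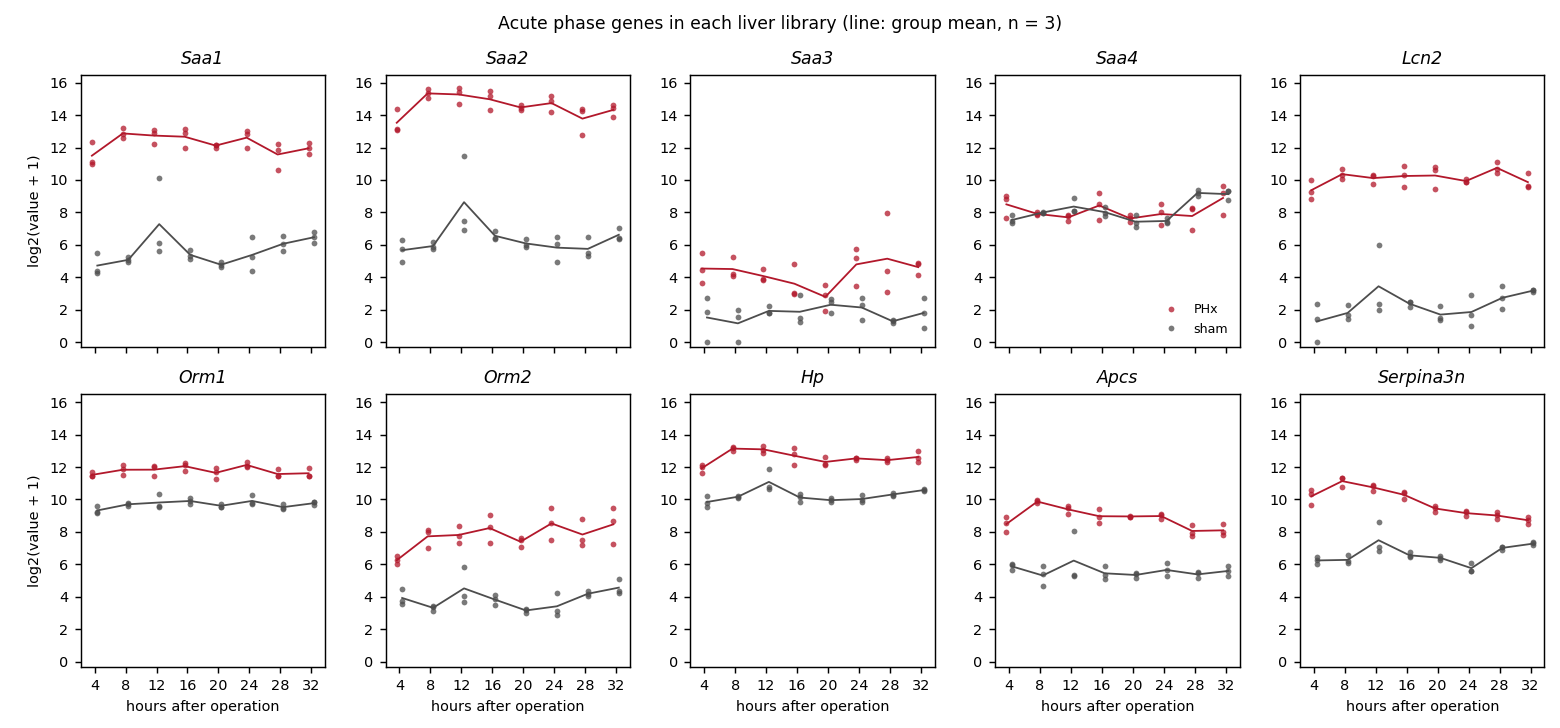
log2(value + 1) of each of the 10 genes (panels) in every time course library, against hours after the morning operation, with points for single livers and lines through the means of 3 PHx or 3 sham livers. PHx livers lie above sham livers at all 8 times in 8 panels (0.857% of all genes tested did so), Saa4 overlaps at most times, and sham 12 h replicate 3 lies above all other sham livers in 8 panels.

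Lcn2 was near 0 in most sham livers and abundant in PHx livers. At 8 h it had linear values of 1083, 1268 and 1641 in PHx livers, against 2.17, 3.88 and 1.73 in sham livers. At 4 h it had 448, 618 and 1034 in PHx livers, against 0, 4.17 and 1.74 in sham livers, with the 0 in sham 4 h replicate 1. All 24 PHx libraries lay above all 24 sham libraries, whose highest log2 value, 6.00, was that of sham 12 h replicate 3. The log2 change was 8.09 at 4 h and 8.56 at 8 h, reached 8.58 at 20 h (382-fold), and was 6.69 at 32 h (103-fold), each ± 0.62 (SE, limma, adjusted p between 3.37e-12 and 2.78e-09). It was 7.45 at 4 h without sham 4 h replicate 1, and 7.95 at 12 h without sham 12 h replicate 3, against 6.67 with it. Neutrophils also carry Lcn2. Of 9 neutrophil markers listed, 6 were in the time course table and 5 were tested, and 3, 0, 1, 1, 2, 0, 0 and 0 of them were called higher from 4 to 32 h. Their summed linear value was 29.4 to 56.4 in PHx livers at 4 h, against 0 to 8.04 in sham livers, and 9.74 to 23.2 in PHx livers at 8 h, against 1.61 to 78.8 in sham livers. The highest of these sums, 78.8, was in sham 8 h replicate 2, where Lcn2 was 3.88. S100a8 was at 0 in 12 of the 24 sham libraries. The part of neutrophils in the Lcn2 values was not tested.

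The orosomucoids differed from each other in level and in change. Orm1, the more abundant, had linear values of 2970, 4434 and 3689 in PHx livers at 8 h, against 891, 768 and 846 in sham livers. Its log2 change was 2.19 at 4 h (4.57-fold), 2.22 at 24 h and 1.84 at 32 h (3.59-fold), each ± 0.20 (SE, limma, adjusted p between 1.30e-10 and 6.20e-08). Orm2 was less abundant and had linear values of 63.3, 75.7 and 88.9 in PHx livers at 4 h, against 12.3, 21.2 and 10.9 in sham livers. At 24 h Orm2 had 182, 377 and 720.0 in PHx livers, against 7.55, 6.40 and 18.2 in sham livers. Its log2 change was 2.32 at 4 h (5.01-fold), 4.41 at 8 h (21.2-fold) and 5.11 at 24 h, each ± 0.51 (SE, limma, adjusted p of 3.09e-04, 4.03e-08 and 9.78e-09). All 24 PHx libraries lay above all 24 sham libraries for both genes, which at most 0.857% of all genes tested can do.

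Hp and Apcs rose at all 8 times, with their largest change at 8 h. Hp had linear values of 8095, 9371 and 9668 in PHx livers at 8 h, against 1111, 1208 and 1135 in sham livers, a log2 change of 2.97 ± 0.23 (SE, 7.83-fold, limma, adjusted p = 6.10e-12). Its change was 2.07 at 4 h (4.21-fold) and 2.04 at 32 h (4.12-fold). Apcs had 879.6, 985 and 948 in PHx livers at 8 h, against 41.1, 58.8 and 24.0 in sham livers, a log2 change of 4.56 ± 0.40 (SE, 23.6-fold, limma, adjusted p = 1.40e-10). At 32 h Apcs had 249, 227 and 360.0 in PHx livers, against 47.7, 59.7 and 37.3 in sham livers, a change of 2.50 (5.67-fold). Groups did not overlap at any time for either gene.

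Serpina3n rose early and had the smallest difference at 32 h of the members called at every time. At 8 h it had linear values of 2522, 1738 and 2580 in PHx livers, against 66.5, 72.7 and 92.7 in sham livers. At 32 h it had 364, 419.8 and 488 in PHx livers, against 145, 156 and 162 in sham livers. The groups still did not overlap at 32 h, but PHx values were lower and sham values higher than at 8 h. The log2 change was 3.95 at 4 h (15.5-fold) and 4.86 at 8 h (29.0-fold), then 3.40 at 24 h and 1.44 at 32 h (2.72-fold), each ± 0.26 (SE, limma, adjusted p of 1.23e-13, 8.97e-16, 1.51e-11 and 2.33e-04).

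Counted over the 10 members, the number called higher after PHx was 10 at 4 h, 9 at 8 h, 8 at 12, 16 and 20 h, and 9 at 24, 28 and 32 h. Among all 12957 genes tested, the share called higher was 9.32, 6.04, 7.57, 7.31, 12.5, 9.19, 14.9 and 11.8% from 4 to 32 h, and the share called lower was 37.6, 18.7, 8.63, 6.35, 5.87, 3.11, 5.59 and 3.6%. The only member called lower was Saa4, at 28 h. Of 80 pairs of a member and a time, 71 were called, 70 of them higher, and 8 members were called at every time, all but Saa3 and Saa4. The median log2 change over the members was 2.81, 4.48, 3.21, 3.63, 3.33, 3.36, 3.16 and 2.66 from 4 to 32 h, beside -0.318, -0.151, -0.013, 0.05, 0.133, 0.101, 0.128 and 0.14 over all genes. Without sham 12 h replicate 3, the members' median at 12 h was 3.875. TMM scaling moved the log2 changes of all genes by a median of 0.408 (4 h), 0.18 (8 h), -0.135 (20 h), -0.136 (24 h), -0.158 (28 h) and -0.165 (32 h). With it, the shares called higher and lower were 21.5 and 18.8% at 4 h, 10.6 and 11.6% at 8 h, 6.94 and 8.78% at 20 h, 5.43 and 5.5% at 24 h, 7.64 and 8.88% at 28 h, and 5.8 and 6.39% at 32 h. The number of members called in each direction was the same under both scalings at all 8 times. At 4 h, where PHx and sham are of different library series, PHx 4 h livers were also set against sham 24 h livers of their own series, and all 10 members were called higher, with Saa2 at 7.70, Lcn2 at 7.51, Serpina3n at 4.43, Orm1 at 1.60 and Saa4 at 1.02. Those sham livers differ from the PHx 4 h livers in hours after the operation and in clock hour of collection.

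**Figure D2:**
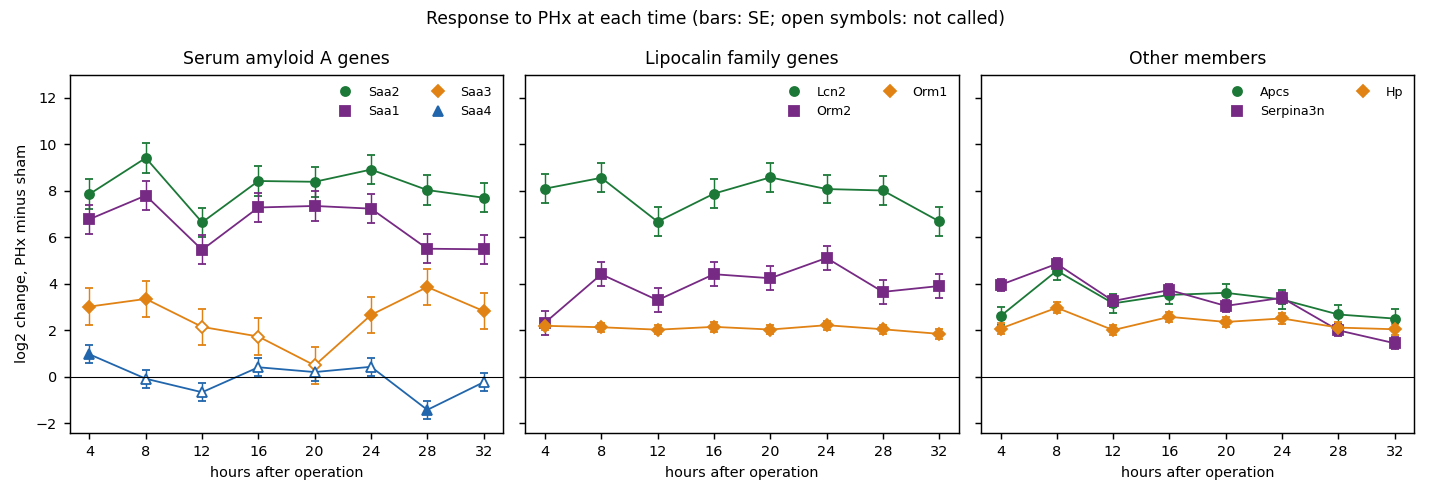
log2 change of PHx against sham (points, with bars of 1 standard error from limma) for each gene at the 8 times of the morning time course, 3 livers per group, with open symbols where the adjusted p missed 0.05. Saa2, Lcn2 and Saa1 stay above 5 at all times, Orm1 stays near 2, Serpina3n drops to 1.44 at 32 h and Saa4 lies on both sides of 0.

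The time course values are scaled by transcript length, so shares of their sum are not shares of reads. Together the 10 genes took up a sizeable part of the summed linear value after PHx. Their share of the summed linear value in PHx livers was 2.23 ± 0.80% at 4 h and 6.14 ± 0.73% at 8 h (SD, n = 3), and then 5.76 ± 1.41, 5.04 ± 1.66, 3.65 ± 0.24, 4.59 ± 1.04, 3.21 ± 0.98 and 3.87 ± 0.87% up to 32 h. In sham livers it was 0.192 ± 0.028% at 4 h and 0.227 ± 0.004% at 8 h, and then 0.525 ± 0.417, 0.243 ± 0.015, 0.198 ± 0.004, 0.225 ± 0.042, 0.299 ± 0.021 and 0.341 ± 0.019%. Saa1 and Saa2 made up most of it, with 4.51 ± 0.69% at 8 h in PHx livers, against 0.00856 ± 0.00039% in sham livers. Saa2 alone held 3.23, 4.39 and 3.85% in the 3 PHx livers at 8 h. At 24 h it held 1.84, 2.86 and 3.415% in PHx livers. In the 24 h read counts of those livers it had 6962, 10509 and 12249 reads per M reads, a smaller share. The sham value at 12 h came from 1.01% in replicate 3, against 0.293 and 0.275% in the other livers.

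**Figure D3:**
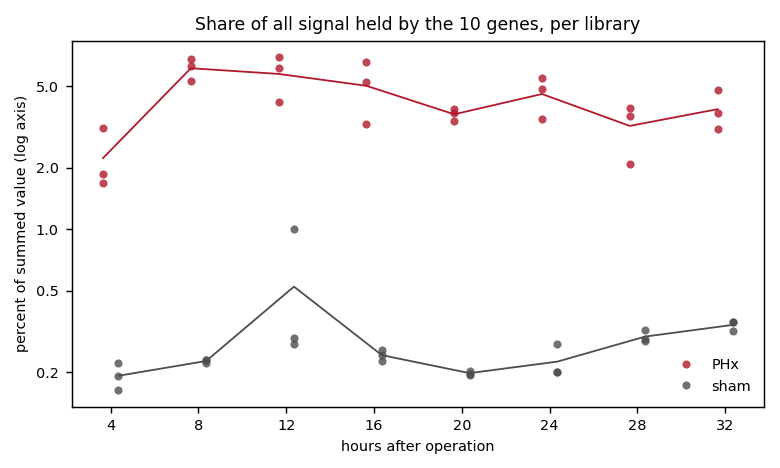
Share of a library's summed linear expression value (percent) held by the 10 genes, for each PHx and sham liver against hours after the morning operation, with lines through the means of 3. PHx livers lie between 1.69 and 6.94%, all above the highest sham liver at 1.01%.

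The level reached at 4 h is given as a description and was not compared between members. The 4 h mean of PHx livers was 17.8% of the gene's own highest mean for Orm2, 30.8% for Saa2, 39.6% for Apcs, 40.1% for Lcn2, 41.9% for Saa1, 43.2% for Hp, 53.1% for Serpina3n, 65.2% for Orm1 and 72.7% for Saa4. It was 27.9% for Saa3, whose highest mean, at 28 h, rests on PHx 28 h replicate 1. Between 4 and 8 h, 5 members rose in PHx livers: Saa2 by 1.81 ± 0.63, Orm2 by 1.47 ± 0.51, Apcs by 1.39 ± 0.40, Hp by 1.22 ± 0.23 and Serpina3n by 0.94 ± 0.26 (log2, SE, limma, adjusted p between 9.20e-05 and 0.0281). The share of all genes called higher in that step was 22.8%. With TMM scaling the count was 2, Hp and Apcs, and without PHx 4 h replicate 1 it was 1, Hp (adjusted p up to 0.00372 over the alternatives). The rise of the difference between PHx and sham was itself tested. It was larger at 8 h than at 4 h by 2.08 ± 0.72 for Orm2 (adjusted p = 0.0369), 1.95 ± 0.57 for Apcs (0.0132) and 0.90 ± 0.32 for Hp (0.0437), where 14.5% of all genes were called in that direction. With TMM scaling, Apcs passed, and Orm2 (1.80, adjusted p = 0.087) and Hp (0.61, adjusted p = 0.223) did not. Each of the 3 calls was also lost without some single library. For Apcs this was sham 8 h replicate 3 (1.61, adjusted p = 0.0524), for Orm2 the adjusted p reached 0.0900 (without sham 4 h replicate 2) and for Hp 0.132 (without the same library). The libraries at 4 and 8 h belong to different series, and series and time cannot be told apart in these steps.

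The largest rise came at 8 h for Saa1, Saa2, Hp, Apcs and Serpina3n, at 20 h for Lcn2, at 24 h for Orm1 and Orm2, at 28 h for Saa3 (at 8 h without PHx 28 h replicate 1) and at 4 h for Saa4, whose change of largest size was the negative difference at 28 h, where sham values were high. These positions describe the means and were not tested as an order. For Lcn2 the changes at 8 and 20 h were close, 8.558 and 8.576. In alternative settings its change reached 9.48 at 4 h and 9.07 at 20 h, so its position depended on the setting. Its mean in PHx livers was highest at 28 h (1746). At 32 h, the mean of PHx livers was 18.6% of the gene's highest mean for Serpina3n, 29.7% for Apcs, 49.9% for Saa2, 53.0% for Saa1, 55.4% for Lcn2, 70.6% for Orm1, 70.9% for Hp and 99.4% for Orm2. Equal differences at the 8 times were rejected in a joint test for Serpina3n (F = 17.1, adjusted p = 1.21e-07), Saa4 (F = 3.76, adjusted p = 0.0124) and Apcs (F = 2.86, adjusted p = 0.0425), against 43.5% of all genes. In this fit the members passed no more often than all genes. The members that passed depended on the fit. With a replicate block 6 passed, these 3 with Orm2, Saa1 and Hp (adjusted p of 0.0195 to 0.0496 for the added ones), beside 43.1% of all genes. Without sham 12 h replicate 3, 5 passed, the 3 with Saa1 and Orm2 (adjusted p of 0.00771 and 0.0377), and over all single libraries left out the count ran from 2 to 7. Between neighbouring times after 8 h, a single difference changed, that of Serpina3n from 8 to 12 h, which fell by 1.60 ± 0.37 (adjusted p = 0.0199, 0.193% of all genes called lower). Without sham 12 h replicate 3 it fell by 1.05 (adjusted p = 0.079), and it also missed the threshold without 1 of 5 other libraries of 8 and 12 h, with falls of 1.48 to 1.56 (adjusted p of 0.0517 to 0.0688).

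Within PHx livers alone, values differed over the 8 times for 6 of 10 members, no larger a share than the 71.5% of all genes. These members were Serpina3n (F = 22.4), Hp (6.21), Apcs (4.78), Orm2 (4.09), Saa4 (2.85) and Orm1 (2.60). From 8 to 20 h, times that share a library series, Serpina3n (F = 15.3, adjusted p = 9.18e-05) and Hp (F = 5.74, adjusted p = 0.0220) differed, against 16.6% of all genes. The count was 1 without PHx 8 h replicate 3 or PHx 20 h replicate 1 or 3. When sham 12 h replicate 3 was left out it was 3, with Apcs added. Over these times the mean log2 value of Serpina3n in PHx livers was 11.13 ± 0.32, 10.75 ± 0.20, 10.29 ± 0.25 and 9.45 ± 0.18 (SD, n = 3 each), and that of Hp was 13.14 ± 0.14, 13.09 ± 0.22, 12.70 ± 0.51 and 12.31 ± 0.25. PHx livers at 4 and 24 h also share a series. Of these, Serpina3n was lower at 24 h by 1.03 ± 0.26 (log2, adjusted p = 0.00162, 4.18% of all genes called lower), while Orm2 was higher by 2.27 ± 0.51 (adjusted p = 4.80e-04, 41.1% called higher). Hp (0.62) and Orm1 (0.61) were also called higher, but with TMM scaling both changes were 0.05 and neither was called. Orm1 fell by 0.56 ± 0.20 between 24 and 28 h (adjusted p = 0.0349, 11.8% of all genes called lower), a step between library series whose call was lost without PHx 24 h replicate 2 or 3 or PHx 28 h replicate 2 or 3 (adjusted p of 0.0567 to 0.148).

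The paralogs within each pair did not keep 1 ratio. In PHx livers the log2 gap of Saa2 over Saa1 was 2.00 at the lowest, 2.33 at the median (5.02-fold) and 2.62 at the highest. In sham livers it was -0.56, 0.90 (1.87-fold) and 1.48. At 28 h it was 2.11, 2.12 and 2.40 in PHx livers, against -0.56, -0.31 and -0.07 in sham livers, so Saa1 exceeded Saa2 in those sham livers. PHx libraries had the larger gap without overlap at all 8 times, with an exact two-sided permutation p of 0.1 at each time, the smallest that 3 against 3 allows. In the read counts of the 24 h tables, which are not divided by length, Saa2 had 2.98, 2.68 and 2.79 times the reads of Saa1 in PHx livers, against 1.03, 1.19 and 0.625 in sham livers. After the night operation the ratios were 2.62, 2.73 and 2.62 in PHx livers, against 0.653, 1.02 and 0.632 in sham livers. The gap of Orm2 to Orm1 was -5.43, -4.16 and -2.46 at the lowest, median and highest in PHx livers, against -6.82, -5.95 and -4.51 in sham livers. It was closer to 0 in PHx livers without overlap at 7 of 8 times, all but 4 h. How reads were assigned between the paralogs is not given in the sources used here.

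**Figure D4:**
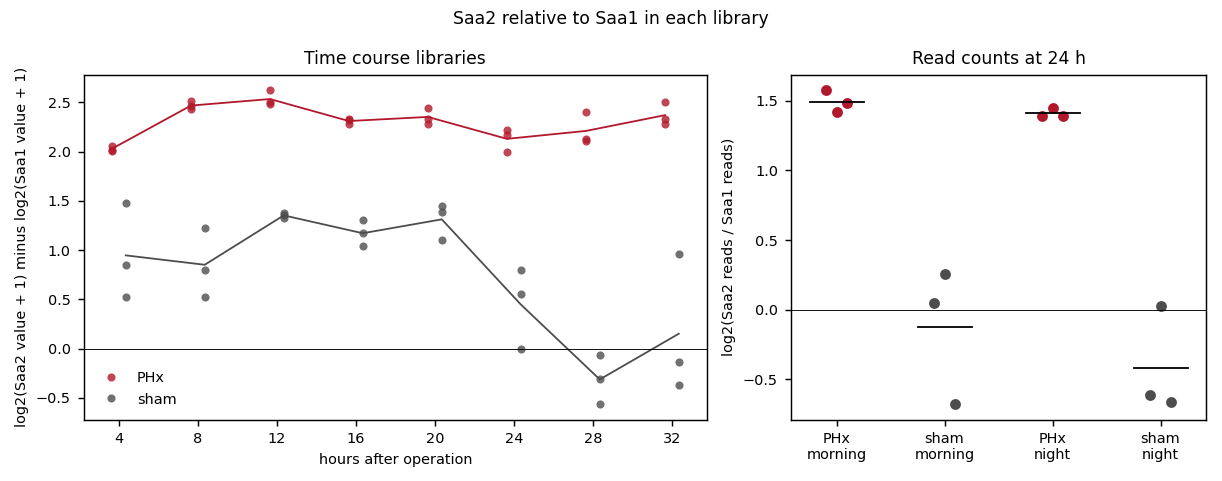
log2 value of Saa2 minus log2 value of Saa1 in each PHx and sham liver, against hours after the morning operation, with lines through the means of 3 (left), and log2 of the ratio of Saa2 to Saa1 reads at 24 h after morning and night operations, with bars at the means of 3 (right). On the left, PHx livers lie between 2.00 and 2.62 and sham livers between -0.56 and 1.48, and on the right PHx livers lie above sham livers for both operation times.

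Sham livers also varied over time. Equal values at the 8 times were rejected for 6 of 10 members, close to the 50.7% of all genes. These members were Serpina3n (F = 9.97), Saa4 (6.87), Hp (6.26), Saa2 (4.74), Saa1 (4.01) and Lcn2 (3.09). The same 6 passed without sham 12 h replicate 3. Sham 12 h replicate 3 was the highest of all sham livers for 8 members and for 2.78% of all genes tested. In sham 12 h replicate 3, log2 values were 11.50 for Saa2, against 7.46 and 6.93 in the other sham 12 h livers, 10.12 for Saa1 against 6.10 and 5.61, 6.00 for Lcn2 against 1.99 and 2.34, and 8.06 for Apcs against 5.28 and 5.35. These differences were 19.8-fold, 19.2-fold, 14.3-fold and 6.69-fold, and Orm2, Serpina3n, Hp and Orm1 were 3.85-fold, 3.15-fold, 2.22-fold and 1.71-fold higher. Saa3 and Saa4 of this liver lay within the range of the other sham livers. For the 8 members that stood out it still lay below the lowest PHx 12 h liver, which for Saa2 was at 14.7. Other acute phase genes were high in it too, with log2 values of 8.38 for Lrg1 against 6.64 and 6.69, 11.67 for Hpx against 10.32 and 10.34, and 9.48 for Itih3 against 7.82 and 7.89. Socs3 was at 2.73 against 3.23 and 2.94. Its neutrophil markers summed to a linear value of 0.35, against 1.12 and 3.71. Prtn3, a neutrophil granule protease outside that list and chosen after its values were seen, was 3.99 higher on the log2 scale in it than in the other sham 12 h livers.

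Set against 4 h, sham livers at 12 h had higher Saa2 (2.96 ± 0.63), Saa1 (2.55 ± 0.63), Lcn2 (2.17 ± 0.62), Serpina3n (1.25 ± 0.26) and Hp (1.24 ± 0.23), where 8.91% of all genes were called higher. Without sham 12 h replicate 3, 3 members passed, and Saa1 (1.13, adjusted p = 0.115) and Lcn2 (0.89, adjusted p = 0.27) did not. Without sham 4 h replicate 1, Lcn2 did not pass either (1.53, adjusted p = 0.139). From 8 to 28 h, the other times had fewer members called higher than at 4 h: 0 at 8 h and at 20 h (4.38 and 4.92% of all genes), Orm1 at 16 h (0.58, 6.88%) and 24 h (0.59, 6.54%), and Saa4 (1.67) and Serpina3n (0.78) at 28 h (9.22%). At 8 and 20 h, 0 members reached an unadjusted p under 0.05 in limma. The calls of Orm1 and that of Serpina3n at 28 h were lost without sham 4 h replicate 1 (adjusted p of 0.125, 0.155 and 0.0674). The call of Orm1 at 16 h was also lost without sham 4 h replicate 2 (0.0911) or sham 16 h replicate 1 (0.141) or 2 (0.0800), and that at 24 h without sham 4 h replicate 2 (0.106) or sham 24 h replicate 2 (0.0522) or 3 (0.227). The call of Serpina3n was also lost without sham 4 h replicate 3 (0.113) or sham 28 h replicate 1 (0.0944) or 3 (0.0817). Between 8 and 20 h, 4 members differed in sham livers (Hp, Serpina3n, Saa2 and Saa1, against 5.31% of all genes) with sham 12 h replicate 3 and 0 without it. At 32 h, sham livers had higher Saa4 (1.59), Serpina3n (1.04), Saa1 (1.75), Lcn2 (1.91) and Hp (0.73) than at 4 h, where 14.1% of all genes were called higher. Without sham 4 h replicate 1 the first 2 of these passed. The call of Saa1 was also lost without sham 4 h replicate 3 (adjusted p = 0.105) or sham 32 h replicate 1 (0.0750) or 2 (0.113). Against 8 h, at the same clock time a day earlier, sham livers at 32 h had higher Saa4 by 1.13 ± 0.38 (adjusted p = 0.0425) and Serpina3n by 1.00 ± 0.26 (adjusted p = 0.00726), beside 5.14% of all genes. The Saa4 call was lost without any 1 of 5 of these 6 libraries (adjusted p of 0.0842 to 0.139). Serpina3n had linear values of 145, 156 and 162 in sham livers at 32 h, against 66.5, 72.7 and 92.7 at 8 h. These steps cross library series, which cannot be told apart from time. All time course operations took place in the morning. Hours after the operation and clock hour therefore cannot be told apart, in sham or PHx livers, except between times a day apart.

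Other genes of the acute phase response moved in part with the 10. Of 18 other positive acute phase genes tested, 11, 11, 10, 12, 13, 12, 7 and 9 were called higher from 4 to 32 h, and 2 were called lower at 4 h and 2 at 12 h. Their median log2 change was 1.10, 2.07, 1.07, 1.60, 1.65, 1.24, 0.80 and 0.71, below that of the 10 members at each time. Lrg1, a leucine-rich glycoprotein, was higher at all 8 times, by 2.80 at 4 h, 3.45 at 8 h and 1.94 at 32 h, as was Itih4, an inter-alpha-trypsin inhibitor chain, by 2.23, 2.60 and 1.40. Steap4, a metalloreductase, was higher by 3.88 at 4 h and 3.40 at 8 h. Fgb, a fibrinogen chain, was higher by 1.16 at 4 h and 2.53 at 8 h but had 0.66 at 32 h (adjusted p = 0.081). Hamp, which encodes hepcidin, had 0.63 at 4 h (adjusted p = 0.27) and was higher by 3.18 at 8 h. Cp, the copper carrier ceruloplasmin, was lower by 0.82 at 4 h and higher by 1.58 at 20 h. At 4 h PHx and sham are of different library series, and 37.6% of all genes were called lower. TMM scaling moved the log2 changes of all genes by a median of 0.408 at 4 h and -0.135 at 20 h. Changes of the listed genes with TMM scaling are not given. Of 7 negative acute phase genes tested, 0, 2, 4, 3, 3, 1, 3 and 0 were called lower and 2, 0, 0, 1, 1, 1, 0 and 0 higher, among the lower ones Serpina6, the corticosteroid-binding globulin gene, which fell by 4.45 at 20 h.

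On the side of the signals, 19 of 22 listed cytokine, receptor and feedback genes were tested, and 10, 9, 5, 8, 9, 6, 9 and 5 were called higher from 4 to 32 h and 2, 2, 2, 2, 2, 1, 2 and 1 lower. Socs3, which inhibits gp130 signalling, was higher at all 8 times, by 4.51 ± 0.42 at 4 h, 3.69 at 8 h and 2.51 at 32 h. Cebpb was higher by 4.48 ± 0.47 at 4 h and had 0.68 at 8 h (adjusted p = 0.323), and Cebpd was higher by 2.60 at 4 h and 1.64 at 8 h. Il1r1, the interleukin 1 receptor, was higher by 2.82 at 4 h and 3.37 at 8 h, while its partner chain Il1rap was lower by 0.81 at 8 h and 1.45 at 28 h. Stat3 was higher by 0.81 at 4 h and 1.27 at 8 h. Il6 was near the floor of the table, with a highest linear value of 2.49, at 0 in 9 PHx and 14 sham libraries, and was called higher at 4 h alone (1.13, adjusted p = 0.00111).

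Likeness of pattern was measured as Pearson's r over the 16 group means of the time course, among 5827 genes with a mean log2 value of at least 3. The groups share library series, and most members differ between PHx and sham at all times, so r largely follows that contrast and is a description. Saa1 was most like Saa2 (r = 0.994) and Lcn2 (0.992). Hp was most like Saa1 (0.987), with the non-member Lrg1 next (0.986), and Orm1 like Saa2 (0.983). Orm2 was most like Hpx (0.977), Apcs like Saa2 (0.98) and Itih3 (0.97), and Serpina3n like Lrg1 (0.966). Saa4 had no gene above 0.793 (Mterf3).

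Morning and night operations were compared at 4 and 24 h. Livers with the same delay after a morning or a night operation were also collected at different clock hours. Hour of operation and clock hour of collection therefore cannot be told apart in any of these comparisons. Morning and night PHx livers at 4 h had 0 of 10 members called (limma on TMM-scaled values, 0.397% of 8311 genes called higher and 0.541% lower), with 1 member at an unadjusted p under 0.05. That was Orm2, with 39.7, 50.4 and 55.5 CPM (reads per M reads) after morning PHx, against 79.9, 81.5 and 104.5 after night PHx, a change of -0.85 ± 0.18 (adjusted p = 0.084). The groups did not overlap, but the share of all genes without overlap between morning and night was not counted. In the values as deposited, without scaling for depth, the change of Orm2 was -1.07 and passed (adjusted p = 0.0288), and edgeR on the recovered reads called 0 members. In sham livers at 4 h, 0 members were called (limma on log2(TPM + 1), where 0 of 11391 genes were called), with Saa2 and Orm2 at an unadjusted p under 0.05. Saa2 had 37.5, 51.9 and 39.1 TPM in morning sham livers, against 30.6, 11.4 and 16.1 TPM in night sham livers, a change of 1.20 (adjusted p = 0.84).

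At 24 h, 0 of 10 members were called between morning and night PHx livers by edgeR's quasi-likelihood test (0.253% of 12658 genes called higher and 0.079% lower), with Lcn2, Hp and Serpina3n at an unadjusted p under 0.05. Serpina3n had 1147, 1248 and 958 CPM in morning PHx livers, against 730.4, 824 and 685 in night PHx livers, a log2 change of 0.64 ± 0.17 (adjusted p = 0.219). Hp had 6089, 6799 and 6469 CPM in morning PHx livers, against 4185, 4934 and 4308 in night PHx livers, a log2 change of 0.59 ± 0.19 (adjusted p = 0.31). The groups did not overlap for either gene, but the share of all genes that did the same was not counted. DESeq2 called both (adjusted p of 0.0099 and 0.0149). In sham livers, 0 members were called (2.75% of 12345 genes higher and 2.61% lower), with Orm2 at an unadjusted p under 0.05 and a change of -0.76 (adjusted p = 0.224). It was -1.23 without sham 24 h replicate 3 (adjusted p = 0.030).

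Most members were higher after PHx for both operation times. After the night operation, 9 of 10 members were called higher at 24 h (edgeR, 11.9% of 12056 genes higher and 11.3% lower), among them Lcn2 by 8.47, Saa2 by 8.09, Saa1 by 6.19, Orm2 by 4.17, Apcs by 3.22 and Serpina3n by 2.21, while Saa4 had -0.23 (adjusted p = 0.70). After the morning operation the same count tables gave 8.03 for Lcn2, 8.59 for Saa2, 6.81 for Saa1, 5.09 for Orm2, 3.06 for Apcs and 3.26 for Serpina3n, with Saa4 at 0.37 (adjusted p = 0.593) and 6.69% of all genes called higher and 5.11% lower. The night call of Saa3 (2.06, adjusted p = 0.0218) was lost without night PHx 24 h replicate 2 (1.30, 0.117) or night sham 24 h replicate 1 (2.08, 0.0632) or 2 (1.88, 0.0831). In the test of the difference of the PHx response, morning minus night, 0 members were called (0.207% of genes higher and 0.282% lower). Serpina3n came nearest, with 1.05 ± 0.27 (adjusted p = 0.108), and the differences of the 10 members ran from -0.44 to 1.22. DESeq2 gave 1.05 for Serpina3n with an adjusted p of 0.0109, and edgeR without sham 24 h replicate 3 gave 1.27 (adjusted p = 0.046).

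**Figure D5:**
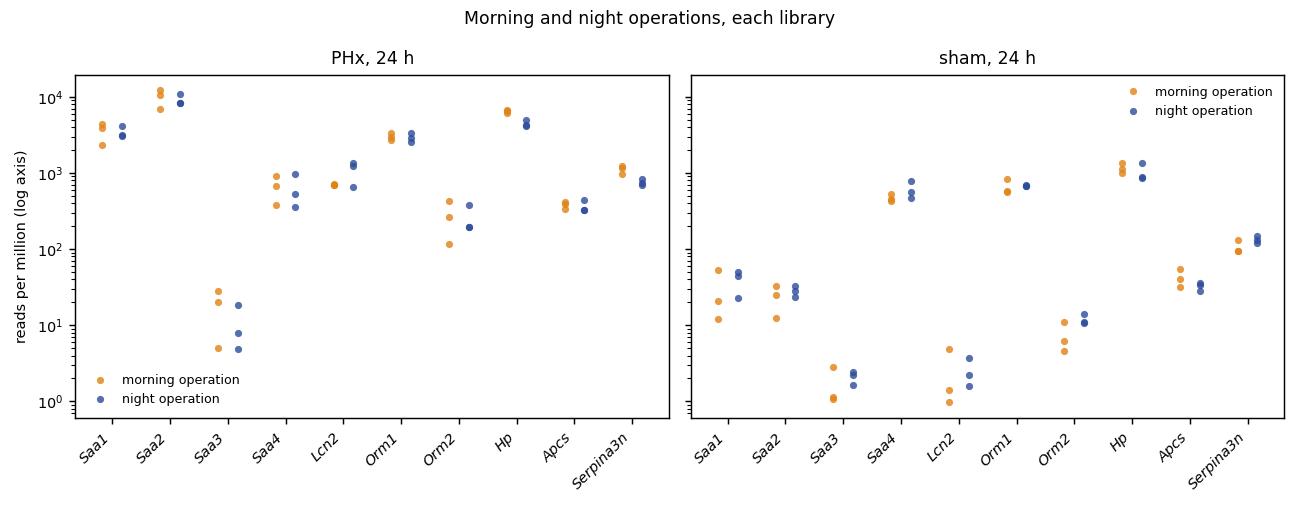
Reads per M reads (log axis) of each gene in single livers at 24 h after a morning or night operation. PHx livers are on the left and sham livers on the right, with 3 livers per group. Between morning and night, no gene passed an adjusted p of 0.05 in edgeR in either panel.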

How the data were processed

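Libraries were made with a SMART-RNAseq kit and read on a NovaSeq instrument, per the labels. Tools named in the submitters' processing notes are fastp 0.20.0 and HISAT2 2.1.0, with the builds mm8 and mm9 in no stated role. How reads were counted, and on which annotation, is not given in the sources used here. The deposited time course holds log2 values with an unstated unit. The deposited 24 h tables hold a raw count per gene, and the 4 h sham table TPM, per the file headers. The deposited signal of PHx at 4 h is headed TPM, but each value is reads multiplied by a factor fixed for the gene: after division by that factor from the 24 h tables, 100% of values were whole within 0.01 (11724 of 11840 genes), giving 24.9 to 30.6 M reads per library. Since it is not scaled to depth, it was tested after TMM scaling and not on the values as deposited. A total of 6 value columns match no labelled sample and were left out.

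For the time course, limma 3.58.1 in R 4.3.3 (eBayes with trend, two-sided) was fitted to the 48 libraries, on genes reaching 1 in 3 libraries or more. For the 24 h reads, edgeR 4.0.16 was used (TMM, filterByExpr, quasi-likelihood test), and for the 4 h tables limma on log2 with a pseudocount of 1. Benjamini-Hochberg adjustment ran over all genes of each comparison. A member counted as called when its adjusted p was under 0.05, whatever its fold. Alternatives were TMM scaling, a pseudocount of 0.1, DESeq2 1.42.0, a replicate block, the libraries of a time alone and leaving out each library. Sequences were aligned and searched with Python 3.11.15 and biopython 1.88. The members and lists were chosen with earlier results of these data known. All 10 members are named, other genes come from the lists, and up to 3 genes most like each member were taken by Pearson's r. Replicates are separate mice per the labels. Deviations from the group means of same-numbered livers correlated above a cut-off of 0.1 in every pair between morning and night sham livers at 24 h alone (0.162 to 0.515). Such a correlation does not show that the mice were paired, and the blocked count there was unchanged. The fits were tested on simulated data.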

Additional observations from a re-analysis of the deposited data

Results flagged for a closer look

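Some members' differences between PHx and sham livers depended on time by a test of that dependence. Serpina3n had an F of 17.1 (adjusted p = 1.21e-07) over the 8 times, Saa4 an F of 3.76 (adjusted p = 0.0124) and Apcs an F of 2.86 (adjusted p = 0.0425). The difference was larger at 8 h than at 4 h by 2.08 for Orm2 (adjusted p = 0.0369), 1.95 for Apcs (adjusted p = 0.0132) and 0.896 for Hp (adjusted p = 0.0437), on the log2 scale. That of Serpina3n changed by -1.60 between 8 and 12 h (adjusted p = 0.0199). All come from limma with 3 livers per group. Of all genes, 43.5% passed the joint test, 14.5% were called in the rise from 4 to 8 h and 0.193% in the fall from 8 to 12 h. In the joint test the members passed no more often than all genes. With TMM scaling the calls of Orm2 (1.80, adjusted p = 0.087) and Hp (0.61, adjusted p = 0.223) were lost, and without sham 12 h replicate 3 that of Serpina3n (-1.05, adjusted p = 0.079). Each of the 3 calls from 4 to 8 h was also lost without some single library. With a replicate block 6 members passed the joint test, and 2 to 7 without single libraries. Groups of 3 were not tested for single outlying samples.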

How the results depend on the processing

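The number of members called between PHx and sham livers over the 8 times was 71, and ranged from 70 to 72 when single libraries were left out. With TMM scaling, 2 changes of the difference between neighbouring times were called in place of 4, and 6 changes between PHx times in place of 10. With a replicate block, 6 members passed the joint test of equal differences in place of 3, and the block moved no other count of calls by over 1.5 times. In the comparisons of morning and night, 1 member was called at 4 h after PHx in the values as deposited, 2 at 24 h after PHx with DESeq2 and 1 in the difference of the response with DESeq2, in place of 0. The cause was not tested. The direction of 2 values that were not called turned: Saa4 at 8 h was 0.13 with TMM scaling, and at 32 h it ran from -0.59 to 0.28 without single libraries, with 0.28 without PHx 32 h replicate 1. Leaving out single libraries gave 1 to 5 changes of the difference, 6 to 15 changes between PHx times, 2 to 7 members in the joint test, 1 to 3 members differing in PHx livers from 8 to 20 h, 0 to 4 in sham livers from 8 to 20 h, 9 to 18 changes of sham livers over time, and 0 to 1 member between morning and night sham livers at 24 h and in the difference of the response. The depth of the time course is not known, so values near 0, such as those of Saa3, Lcn2 in sham livers and Il6, carry a counting error that cannot be given.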
